A study of Drosophila melanogaster with 399 samples.

Results

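The 61 genes described here are Drosophila melanogaster genes that carry only a computed CG symbol and that were nearly silent in early control embryos and abundant in the oldest ones. They were chosen by their mean level in the control libraries, in counts per 1000000 gene counts (CPM). A gene needed at least 50 CPM at 16-18 h after egg laying, at most 1 CPM at 0-1.5 h, and at 10-12 h at most 5% of its 16-18 h mean. Of 17612 gene symbols listed, 6477 are CG symbols and 61 of these met all 3 thresholds. Another 7 CG symbols had been set aside in advance, and none of them met the thresholds. The annotation used here now names CG42235 kumpel and CG9572 aspr.

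Polyadenylated RNA of whole embryos was sequenced to learn which genes change when 1 of 45 transcription factors (TFs) is knocked down by RNA interference (RNAi). The RNAi embryos came from females with da-Gal4 insertions on both large autosomes, which drive expression everywhere, and males of a TRiP line with 1 UAS short hairpin against the TF. Control embryos came from the same driver with a hairpin against mCherry, a gene flies do not have, except that the E5 RNAi embryos were set against da-Gal4 embryos and the twi RNAi embryos against MTD-Gal4 embryos. Each TF had 1 hairpin, and embryos were collected at 0-1.5 h, at 16-18 h and in windows between. The 399 libraries are 271 RNAi and 128 control libraries, with 2 libraries a group except in 3 RNAi groups of 1 library. The 21 control sets were each shared by up to 4 TFs, so comparisons with the same control set are not independent.

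In the last hours before hatching the fly embryo secretes its first larval cuticle, fills its air tubes and prepares the gut to digest food. Genes used by these larval tissues start to be transcribed late, so that a whole embryo holds much of their RNA only near the end of embryogenesis. A CG symbol means that a gene was found by annotation and that no published name had been attached to it when the counts were made, not that nothing is known of its protein. Because whole embryos were used, fewer cells of a type and less RNA per cell cannot be told apart.

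The hairpins behind 4 of the comparisons with many changed members are shown because each stands alone for its TF. They are the sense strands, 21 bases long, written 5′ to 3′ with T for U. The targets caup and ERR lie on arm 3L, sens-2 on arm 2L and CG32006 on chromosome 4.
caup: tacgattacgagtacgtttaa
ERR: caagtccacacgactagcata
sens-2: ctggtcaagactgaacaacta
CG32006: cagaaccaactcacaagtcaa

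Gene counts per library ranged over 14.5 to 167 M in the RNAi group and 13.2 to 101 M in the controls. The targeted TF was lower in every RNAi library than in both control libraries in 57 of the 74 comparisons used here. Its level is given with the main results, and where it was not lower the libraries are called labelled RNAi. That label refers to the count over the whole gene only, and does not mean that knockdown failed. Some libraries stood apart in the summed level of the 61 genes, which is plotted by window. The first of the 2 mCherry control libraries for CG9876 and Hr51 at 12-14 h had 3531 CPM, while the other 9 control libraries of that window had 192 to 706 CPM and the 6 of 14-16 h had 2634 to 3702 CPM. The mCherry control set of zfh2, Sox102F and Hr3 was the lowest at 16-18 h, with 2238 and 2900 CPM against 4089 to 9476 CPM in the other 40 libraries. At 0-1.5 h the summed level was under 10 CPM in 24 of 42 control libraries and reached 195 CPM in the highest.

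**Figure D1:**
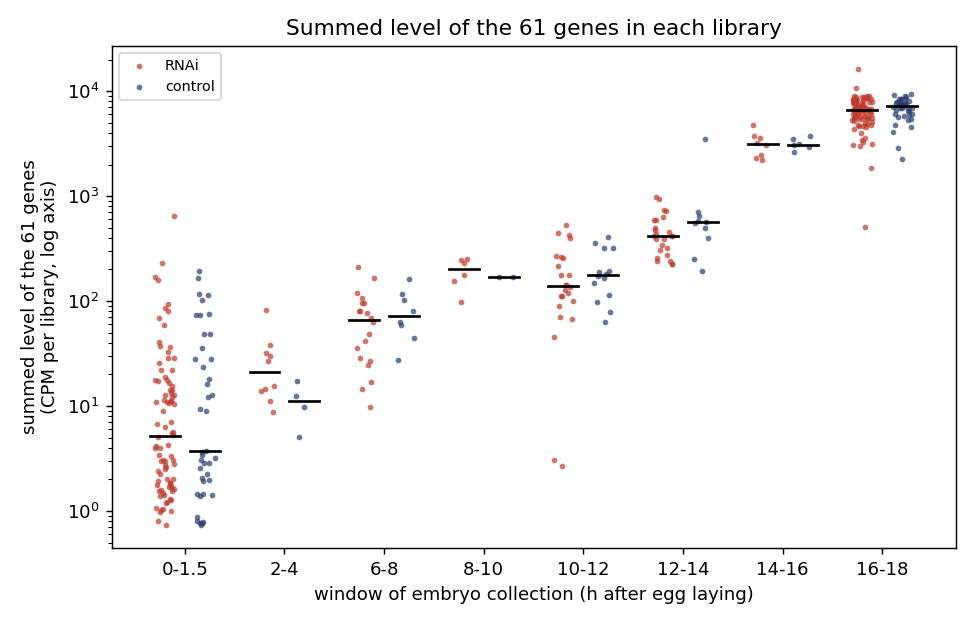
Summed CPM of the 61 genes (log axis) in each RNAi library (left, red) and control library (right, blue) of each window, in hours after egg laying; black lines are medians. The level is highest at 16-18 h, and the single control point near 3531 CPM at 12-14 h is the library that stands apart.

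The longest annotated protein of the 61 genes had a median of 234 residues, from 40 to 1360, and 28 of the 61 coded at most 200 residues (45.9%). The 42 members with 1 or 2 exons made up 68.9%. Over all 13417 protein-coding genes listed, the median was 390 residues, 23.02% coded at most 200 residues and 38.3% had 1 or 2 exons. Genes with a published name that met the same 3 thresholds, 29 in all, had a median of 501 residues, 6.90% at most 200 residues and 44.8% with 1 or 2 exons. These shares are descriptions and were not tested.

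The members lay on all major arms, with 23 on 3L, 15 on 3R, 11 on 2R, 8 on X and 4 on 2L. Arm 3L held 37.7% of the members and 19.6% of all coding genes. In 6 places at least 2 members lay within 20 kb of each other. The largest group, on arm 3L between 11577006 and 11582197 of the dm6 assembly, held CG33271, CG33270, CG43390, CG43391 and CG33269 on the minus strand, all of 1 exon. CG33269, CG33270 and CG33271 each code 88 residues, as do CG33272 on the same arm and CG9877 on 2R, and CG43390 and CG43391 each code 40 residues. Reads from near-identical genes could have been assigned to the wrong copy or dropped, and the likeness of these sequences was not tested.

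The other 5 groups were pairs. On 2R, CG5084 and CG10910 lay on the plus strand, and CG5767 and CG10911 on the minus strand with 3 other coding genes between. CG34267 and CG34268 lay inside klar on 3L and pointed away from each other. CG13311 and CG34426 on 3L and CG14374 and CG14377 on 3R were arranged likewise. Members that overlap another gene, such as CG34267 and CG34268 with klar, may share counts with it, since the sources used here do not say whether strand was used in counting.

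For some members a role can be read from the protein family. CG17571, CG1304 and CG17145 are serine proteases, CG17134 is an aspartic protease and CG6763 a metalloprotease of the astacin family. CG5162 and CG6277 are lipases, CG15533 is an acid sphingomyelinase, CG32444 an aldose 1-epimerase, CG8492 a lysozyme and CG3819 a nuclease. CG7888 is an amino acid transporter, CG42235 (kumpel) a transporter of the sodium solute family and CG9825 a transporter of the major facilitator family. CG10725 binds chitin and CG7409 is a small heat shock protein. For many of the others no role is given here.

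The 16-18 h control levels chose the members and are given as a description. The highest was that of CG4563, of the acyl-CoA ligase family, with a mean of 294 CPM and a range of 64.0 to 525 CPM over 42 control libraries. The next were CG33270 at 264 CPM, CG40198 at 251 CPM, CG34268 at 214 CPM, CG34267 at 189 CPM and CG8160 at 186 CPM. Over all 61, the mean level ranged from 50.1 to 294 CPM, with a median of 105 CPM. Just inside the 50 CPM threshold were CG1304 at 50.06 CPM and CG43390 at 50.18 CPM, and just outside it CG33500 at 49.99 CPM and CG31288 at 49.38 CPM. Near the 1 CPM limit at 0-1.5 h, CG9877 had 0.995 CPM and CG8160 0.994 CPM, while CG17738 at 1.01 CPM and CG14565 at 1.08 CPM were left out. Near the 5% limit at 10-12 h, CG10562 had 4.95% and CG45078 4.92% of the 16-18 h mean, while CG16713 at 5.04% and CG33110 at 5.08% were left out.

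The other windows were not used by the rule. The mean control levels of the 61 genes summed to 11.2 CPM at 2-4 h, 82.4 CPM at 6-8 h and 170 CPM at 8-10 h, against 201 CPM at 10-12 h. They then summed to 793 CPM at 12-14 h, 3172 CPM at 14-16 h and 6886 CPM at 16-18 h. Without the library that stands apart the sum at 12-14 h was 488 CPM. The median member reached 10.2% of its 16-18 h mean at 12-14 h (5.46% without that library) and 43.7% at 14-16 h.

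**Figure D2:**
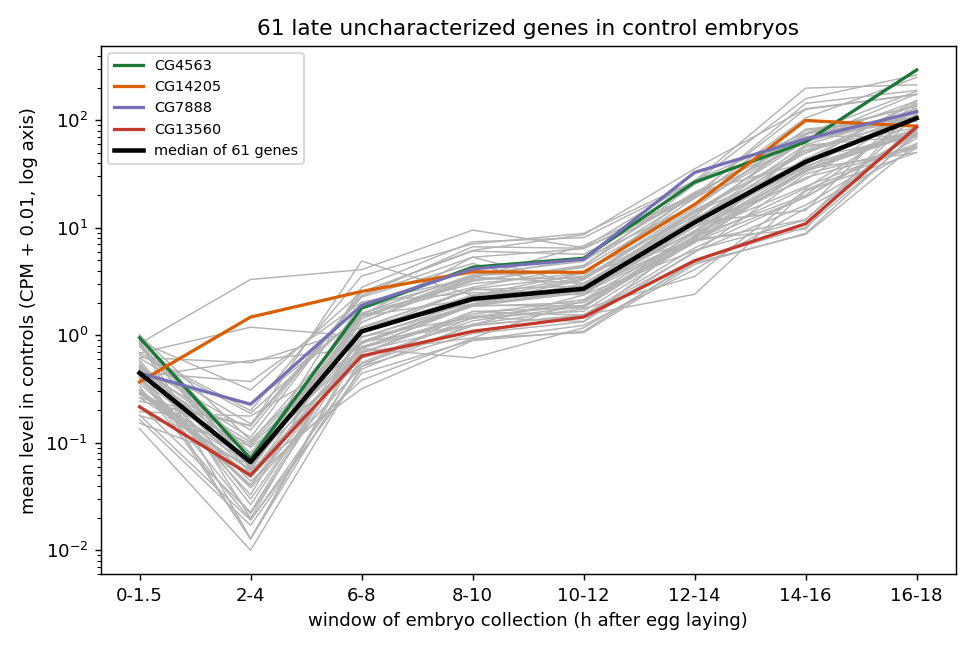
Mean control level of each of the 61 genes (grey lines; CPM + 0.01, log axis) by collection window, with the median in black and 4 genes in colour. CG4563 ends highest, CG14205 is at 99.5 CPM at 14-16 h and 88.2 CPM at 16-18 h, and CG13560 is at 10.9 CPM at 14-16 h.

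The members did not all come on at the same time. At 14-16 h, 26 of the 61 were at 50% or more of their 16-18 h mean, 26 were at 20% to 50%, and 9 were under 20%. The 9 latest were CG42815, CG11413, CG3819, CG9682, CG13560, CG3348, CG32241, CG15533 and CG5767. CG14205, an acyltransferase, was the single member as high at 14-16 h (99.5 CPM) as at 16-18 h (88.2 CPM). At the early end, the transporter CG7888 was already at 27.2% of its 16-18 h mean at 12-14 h, and CG42235 at 25.8%. Without the library that stands apart these shares were 23.3% and 21.3%, still the highest of the 61. The protease CG6763 followed at 20.3%, but without that library it was at 13.8%, under CG9555 at 18.5%, CG45078 at 15.2% and CG15369 at 14.5%. The lowest shares at 12-14 h also rested on that library. They were those of CG43390 at 4.77%, CG3819 at 5.45% and CG42815 at 5.56% with it, and those of CG42815 at 2.26%, CG13560 at 2.499% and CG32241 at 2.81% without it.

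Because the rule chose genes that were low at 10-12 h and high at 16-18 h, a higher level at a step between those windows follows in large part from the choice, and the counts here describe its timing and support nothing. The step was fitted on control sets, with the 3 sets of 14-16 h against the 5 of 12-14 h. A gene was called where the edgeR quasi-likelihood test gave an adjusted p of at most 0.1 and a log2 fold change of at least 0.5 in size. All 61 members had a higher estimate at 14-16 h, with log2 differences of 0.22 to 3.20 and a median of 1.89, and 30 were called higher. Of all 12065 genes tested 9.14% were called higher, and their median difference was -0.14. The count rested on single sets. It was 59 of 61 when the library that stands apart was left out, when 17.4% of all genes were called higher, and 61 without that whole set. It fell to 5, 11 and 11 without 1 of 3 other 12-14 h sets, and to 1, 2 and 4 without 1 of the 14-16 h sets. In the library that stands apart, every member was above the other 9 control libraries of 12-14 h, and 33 of the 61 were within the range of the 6 libraries of 14-16 h. Without it, every 14-16 h library was above every 12-14 h library for 54 members.

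For CG33270, one of the most abundant members, the log2 difference was 2.55 ± 0.79 (SE, adjusted p = 0.0806), and 3.84 ± 0.19 (SE, adjusted p = 1.29e-05) without the library that stands apart. For CG34268 it was 2.86 ± 0.64 (SE, adjusted p = 0.0334) and 3.74 ± 0.23 (SE, adjusted p = 2.70e-05). CG42815 and CG3819, among the 9 latest, were not called either way. CG42815 had 0.22 ± 1.03 (SE, adjusted p = 0.887), or 1.41 ± 0.62 (SE, adjusted p = 0.153) without that library.

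Among control sets at 16-18 h most members varied moderately. On a log2(CPM + 1) scale the SD of the 21 set means had a median of 0.52 over the members and was under 1 for 59 of 61. The difference between the 2 libraries of a set had a median of 0.26 in the middle member. The exceptions were CG13560 with an SD of 1.95 and the nuclease CG3819 with 1.04. By the coefficient of variation over the 42 libraries the most variable were CG34267 at 60.0%, CG13227 at 59.5% and CG13560 at 58.7%. CG34267 had its highest values, 780.5 and 484 CPM, in the MTD-Gal4 control of twi. CG1304 had its lowest, 3.45 and 5.75 CPM, in the da-Gal4 control of E5. Differences between these sets hold driver, hairpin and collection together, which cannot be told apart.

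Each RNAi group was then compared with its own control. At 16-18 h all 61 members were tested in all 45 comparisons, and 160 of the 2745 pairs of member and TF were called lower (5.83%) and 33 higher (1.20%). Over all genes in these comparisons 1.70% were called lower and 2.33% higher. The members had been chosen for a high level in these same 16-18 h controls. That choice can favour lower calls, here and in each 16-18 h comparison below, by an amount that was not measured. In the RNAi libraries 58 of the 61 members met the 3 thresholds. In 24 of the 45 comparisons no member was called by edgeR, with 147 member tests at an unadjusted p under 0.05 and 69 calls by DESeq2 in those 24. No gene at all was called for CG15696, CG32006, CG33557, CG34376, ERR, Ets65A, Hr3, bsh, cad, dmrt99B, gfzf, repo, scro, scrt and su(Hw). Of the rest of the 24, toe had the most calls, with 186 lower and 38 higher of 11373 genes. A missing member call in these comparisons therefore does not set the members apart from other genes. The lower calls were concentrated, with 48.1% of them in the comparisons of CG10209 and caup. In these 2 comparisons 11.9% and 18.5% of all genes were called lower and 12.6% and 30.2% higher. Without them the calls of members numbered 83 lower and 30 higher, and the matching share of all genes was not computed. Over all genes the 45 comparisons made 8609 lower and 11800 higher calls in 506871 tests. Of these calls CG10209 gave 1323 lower and 1401 higher in 11113 tests. The caup comparison gave 2109 lower and 3441 higher in 11405 tests. At least 1 call was made for 57 members, lower for 53 and higher for 22. DESeq2 made 219 lower and 78 higher calls, and a single fit of all 16-18 h libraries made 136 lower and 71 higher calls.

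At 14-16 h, 24 of 244 pairs were lower and 3 higher (all genes 1.29% lower, 2.61% higher), and at 12-14 h, 69 of 793 were lower and 19 higher (all genes 2.00% lower, 4.81% higher). The 2 windows together had 93 lower and 22 higher calls of members (all genes 1.83% lower, 4.29% higher), and a single fit of all libraries of a window made 31 lower and 5 higher. The 12-14 h calls include 6 lower and 2 higher for Camta, which had 1 RNAi library there, assumed to vary like the controls, and for which the single fit made none. At 10-12 h, when the members were still low, 89 of 729 pairs were lower and 1 higher (all genes 4.59% lower, 3.92% higher), and 61 of the lower calls came from caup alone. The remaining 3 of 732 possible pairs did not pass the count filter there.

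**Figure D3:**
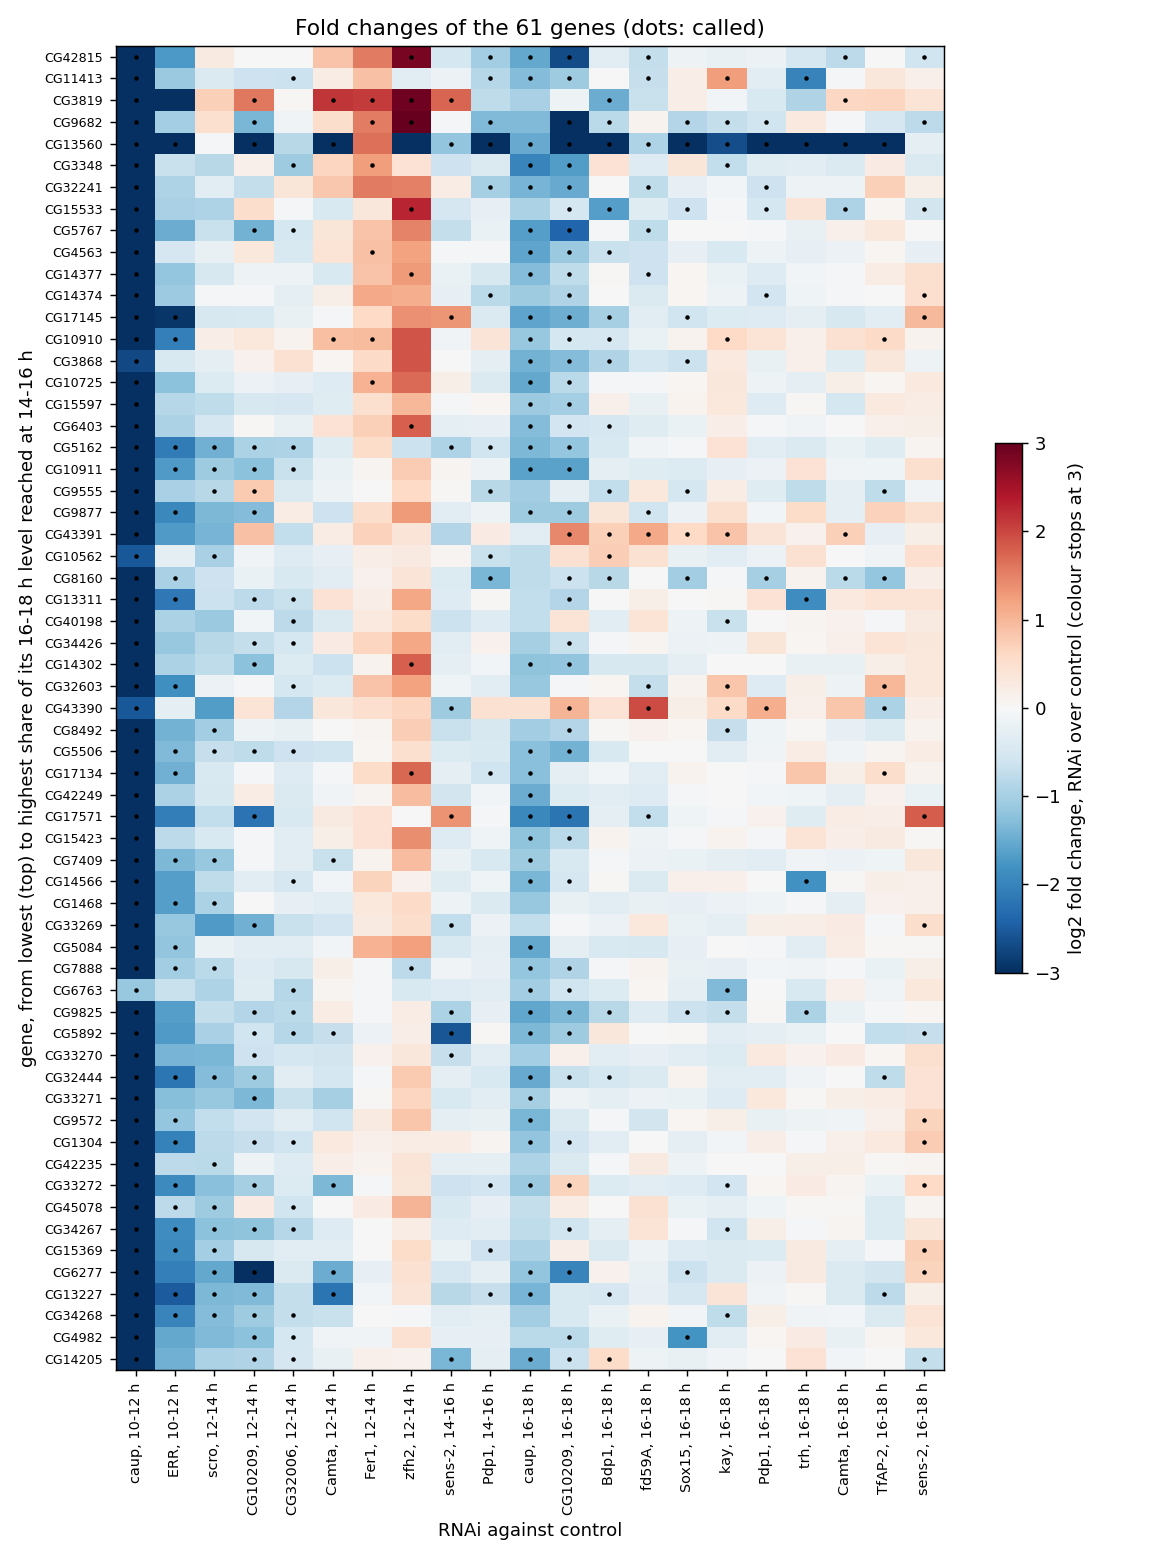
Log2 fold change (RNAi over control, edgeR) of the 61 genes in the 21 comparisons with at least 5 member calls, ordered by window. Rows run from the latest genes at the top to the earliest at the bottom by the share of the 16-18 h level reached at 14-16 h, dots mark calls, and the colour stops at 3. All 61 genes are called lower in caup RNAi at 10-12 h, while zfh2 RNAi at 12-14 h is mostly red, and Camta at 12-14 h has 1 RNAi library.

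The most members were lower after knockdown of caup, a homeodomain factor of the Iroquois family. The caup level was 0.771 and 0.216 CPM in caup RNAi embryos, against 40.2 and 36.8 CPM in controls at 10-12 h. At that window all 61 members were called lower, where 49.5% of all 11224 genes were called lower and 35.4% higher. The summed level of the members was 3.09 and 2.67 CPM in caup RNAi embryos, against 322 and 180.5 CPM in controls, so that the groups did not overlap. The median log2 fold change was -4.82 for the members and -1.17 for all genes, a difference of -3.65, and it stayed -4.82 with members that had no RNAi count placed at their bound. The 29 named late genes were lower without exception too, with a median of -4.38. The count of members was 33 without the first control library.

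Several members had no count in either caup RNAi library at 10-12 h. The protease CG17571 had 0 counts, against 5.53 and 2.54 CPM in controls, which makes it at least 334-fold lower by the floor of 3 counts over the group. CG32444 was at least 290-fold lower, with 4.47 and 2.64 CPM in controls. CG33271 was at least 226-fold lower, with 3.87 and 1.55 CPM in controls, and CG9825 at least 161-fold lower, with 2.27 and 1.76 CPM in controls. Markers of other tissues were also lower in caup RNAi embryos at this window. All 8 muscle markers, all 8 midgut digestion markers, 12 of 13 cuticle and epidermis markers and all 6 neuron markers were called lower. The summed muscle markers were 944 and 245 CPM in caup RNAi embryos, against 16030 and 16400 CPM in controls. Markers of eggs were higher in 4 of 5 cases, with 414 and 396 CPM in caup RNAi embryos, against 188 and 217 CPM in controls. Their part in the members' change was not tested.

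At 16-18 h, 38 of the 61 members were called lower in caup RNAi embryos and none higher, against 18.5% lower and 30.2% higher of all 11405 genes. The caup level was 1.24 and 0.323 CPM in caup RNAi embryos, against 21.8 and 24.6 CPM in controls. The summed member level was 1839 and 503 CPM in the 2 caup RNAi libraries, the lowest of the 90 RNAi libraries of that window. CG3348 had 15.7 and 2.74 CPM in caup RNAi embryos, against 86.8 and 107 CPM in controls. CG17571 had 24.0 and 4.18 CPM in caup RNAi embryos, against 132 and 154 CPM in controls. Both genes were lowest in the second RNAi library, and the groups did not overlap. CG5767 had 30.5 and 5.93 CPM in caup RNAi embryos, against 142 and 164 CPM in controls, and CG10911 35.9 and 9.31 CPM, against 164 and 211 CPM in controls.

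The fitted changes in caup RNAi at 16-18 h, computed after scaling between libraries, were smaller than the plain CPM ratios. The log2 fold change was -1.98 ± 0.60 (SE, adjusted p = 0.0403) for CG3348 and -1.92 ± 0.59 (SE, adjusted p = 0.0431) for CG17571. The median was -1.18 for the members and -0.42 for all genes, a difference of -0.77. With the relative log expression (RLE) scaling in place of trimmed means (TMM) these medians were -0.96 and -0.13, and 32 members were called. No member was called without the first or without the second control library, and 60 were called without the first RNAi library. All 5 egg markers were called higher, with 439.9 and 499 CPM in caup RNAi embryos, against 139 and 128 CPM in controls. The midgut digestion markers were lower in 6 of 8 cases, with 483 and 121 CPM in caup RNAi embryos, against 2089 and 2490 CPM in controls. Of the cuticle and epidermis markers 5 of 13, of the muscle markers 3 of 8 and of the hemocyte markers 3 of 6 were lower. The part of these lists in the result was not tested.

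In CG10209 RNAi embryos, 39 of the 61 members were called lower at 16-18 h and 3 higher, against 11.9% and 12.6% of all 11113 genes. CG10209, a gene of arm 2R that is also known only by its CG symbol, had 4.69 and 6.02 CPM in CG10209 RNAi embryos, against 13.8 and 11.8 CPM in controls. The median log2 fold change was -0.65 for the members, 0.00 for all genes and -0.39 for the 29 named late genes, of which 12 were lower. CG9682 fell to 8.02 and 11.9 CPM in CG10209 RNAi embryos, against 138 and 129.9 CPM in controls, a log2 fold change of -3.67 ± 0.19 (SE, adjusted p = 1.24e-04). CG42815 fell to 24.6 and 30.4 CPM, against 178 and 198 CPM in controls, or -2.69 ± 0.13 (SE, adjusted p = 1.08e-04). CG5767 fell to 28.3 and 38.6 CPM, against 199.5 and 169.8 CPM in controls, or -2.38 ± 0.17 (SE, adjusted p = 3.41e-04). The libraries did not overlap for any of these. For CG9682 and CG5767 these controls include the highest of the 42 control libraries of 16-18 h, whose medians were 78.2 and 118 CPM. All 3 genes are among the 9 latest members. Of those 9, 8 were called lower with a median of -1.67, while 13 of the 26 earliest were, with a median of -0.49.

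CG13560 fell furthest of all in CG10209 RNAi and is described with the other crosses further on. The members that were higher at 16-18 h were CG33272, CG43390 and CG43391. The lower calls numbered 30 to 40 when 1 library was left out, and 24 in the single fit of all libraries. Of the midgut digestion markers 4 of 8 were lower and 1 higher. They summed to 1748 and 1944 CPM in CG10209 RNAi embryos, against 2709 and 2439 CPM in controls. Of the neuron markers 3 of 6 and of the egg markers 2 of 5 were higher. The egg markers summed to 137 and 99.7 CPM in CG10209 RNAi embryos, against 58.4 and 71.7 CPM in controls. The part of these lists in the result was not tested.

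At 12-14 h, 25 members were lower in CG10209 RNAi embryos and 2 higher, against 6.36% and 8.99% of all 11392 genes. The CG10209 level was 7.07 and 8.57 CPM in CG10209 RNAi embryos, against 13.8 and 12.7 CPM in controls. The lipase CG6277 fell to 0.669 and 0.844 CPM in CG10209 RNAi embryos, against 12.4 and 7.56 CPM in controls, a log2 fold change of -3.67 ± 0.30 (SE, adjusted p = 4.71e-05). CG17571 fell to 0.892 and 1.22 CPM, against 6.46 and 3.74 CPM in controls, or -2.21 ± 0.33 (SE, adjusted p = 9.95e-04). CG3819 was the other way, with 4.43 and 9.13 CPM in CG10209 RNAi embryos, against 2.13 and 2.66 CPM in controls, or 1.57 ± 0.32 (SE, adjusted p = 0.00547). The lower members were 13 without the first control library, 15 without the first RNAi library and 3 in the single fit of all libraries. At this window 3 of 8 midgut digestion markers were higher, with 183 and 185 CPM in CG10209 RNAi embryos, against 128 and 83.95 CPM in controls, and 3 of 6 neuron markers were higher. The part of these lists in the result was not tested.

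CG33272 was called in opposite directions at the 2 windows of CG10209. It had 3.84 and 4.28 CPM in CG10209 RNAi embryos, against 11.7 and 5.63 CPM in controls at 12-14 h. At 16-18 h it had 215 and 197 CPM in CG10209 RNAi embryos, against 152 and 122 CPM in controls. The log2 fold changes were -0.999 ± 0.30 and 0.67 ± 0.14 (SE), and their difference of 1.73 ± 0.40 (SE) had an adjusted p of 0.0321.

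In ERR RNAi embryos at 10-12 h, 24 members were called lower and none higher, against 2.07% of all 11021 genes lower and 0.236% higher. ERR, the estrogen-related receptor, drives a metabolic switch in the middle of fly embryogenesis. Its level was 7.66 and 8.01 CPM in ERR RNAi embryos, against 23.6 and 24.4 CPM in controls. The summed members were 45.6 and 70.6 CPM in ERR RNAi embryos, against 165 and 114 CPM in controls, without overlap. The median log2 fold change was -1.34 for the members, with all 61 below 0, and -0.02 for all genes.

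CG17145 fell to 0.0741 and 0.148 CPM in ERR RNAi embryos, against 0.675 and 1.00 CPM in controls, a log2 fold change of -2.93 ± 0.57 (SE, adjusted p = 0.0476). CG13227 fell to 0.222 and 0.211 CPM, against 1.62 and 0.858 CPM in controls, or -2.49 ± 0.48 (SE, adjusted p = 0.0443). CG32444 fell to 0.426 and 0.337 CPM, against 2.27 and 1.22 CPM in controls, or -2.17 ± 0.41 (SE, adjusted p = 0.0423). Muscle, cuticle, neuron and glia markers had no calls in this comparison. Of the midgut digestion markers 1 of 8 was lower, with 11.4 and 17.2 CPM in ERR RNAi embryos, against 33.8 and 26.0 CPM in controls. The calls numbered 1 without the first control library, 40 without the second and 47 without the second RNAi library, and none was made in the single fit of all libraries. At 16-18 h no member was called in ERR RNAi embryos by edgeR, with 2 at an unadjusted p under 0.05 and 2 called by DESeq2, and the counts of the windows were not tested against each other.

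In CG32006 RNAi embryos at 12-14 h, 20 members were lower and none higher, against 4.73% and 15.7% of all 11448 genes. CG32006 had 0.588 and 0.351 CPM in CG32006 RNAi embryos, against 4.63 and 4.26 CPM in controls. The astacin CG6763 fell to 10.5 and 9.54 CPM in CG32006 RNAi embryos, against 20.7 and 19.9 CPM in controls, a log2 fold change of -0.86 ± 0.10 (SE, adjusted p = 2.11e-04). CG3348 fell to 2.14 and 2.05 CPM, against 4.73 and 5.09 CPM in controls, or -1.07 ± 0.17 (SE, adjusted p = 0.00134). The lipase CG5162 fell to 4.12 and 4.37 CPM, against 6.68 and 11.4 CPM in controls, or -0.94 ± 0.22 (SE, adjusted p = 0.0138). CG5892 fell to 3.15 and 7.01 CPM, against 9.97 and 10.4 CPM in controls, or -0.85 ± 0.30 (SE, adjusted p = 0.0632). None of the 4 overlapped. The calls numbered 12 without the first RNAi library and 0 in the single fit of all libraries. At 16-18 h no member was called by edgeR, but neither was any other of the 11285 genes tested. At an unadjusted p under 0.05 there were 2 members, and DESeq2 called 1.

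In scro RNAi embryos at 12-14 h, 17 members were lower and none higher, against 12.7% and 22.5% of all 11305 genes. The scro level was 14.0 and 8.24 CPM in scro RNAi embryos, against 17.04 and 14.9 CPM in controls, with an adjusted p of 0.737 for scro itself. CG34268 fell to 7.10 and 4.27 CPM in scro RNAi embryos, against 22.0 and 14.3 CPM in controls, a log2 fold change of -1.30 ± 0.36 (SE, adjusted p = 0.0515). CG13227 fell to 1.21 and 0.879 CPM, against 4.17 and 2.68 CPM in controls, or -1.34 ± 0.40 (SE, adjusted p = 0.0630). CG6277 fell to 3.11 and 1.06 CPM, against 9.30 and 6.66 CPM in controls, or -1.55 ± 0.53 (SE, adjusted p = 0.0846). CG5162 fell to 0.683 and 1.98 CPM, against 4.96 and 4.31 CPM in controls, or -1.44 ± 0.52 (SE, adjusted p = 0.0963).

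The members' median in scro RNAi was -0.80 and that of all genes -0.17, and with the RLE scaling, at -0.67 and -0.06, 6 members were called. The calls numbered 3 and 5 without the first or the second control library. Of the muscle markers 5 of 8, of the neuron markers 5 of 6 and of the hemocyte markers 4 of 6 were also lower. The summed muscle markers were 18400 and 18320 CPM in scro RNAi embryos, against 33070 and 35960 CPM in controls. Of the egg markers 2 of 5 were higher. They summed to 379.5 and 352 CPM in scro RNAi embryos, against 307 and 323 CPM in controls. The part of these lists in the result was not tested. At 16-18 h no member was called in scro RNAi by edgeR, but neither was any other of the 11580 genes tested. At an unadjusted p under 0.05 there were 2 members, and DESeq2 called 1.

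Fewer members were called for other TFs at 16-18 h. Sox15 RNAi had 10 lower and 1 higher, against 2.98% and 4.40% of all genes, in libraries where Sox15 itself was not lower (1.31 and 1.13 CPM in the libraries labelled Sox15 RNAi, against 1.07 and 1.57 CPM in controls). CG4982 fell to 21.6 and 21.2 CPM in the libraries labelled Sox15 RNAi, against 78.2 and 78.4 CPM in controls, a log2 fold change of -1.80 ± 0.08 (SE, adjusted p = 2.02e-06). CG8160 fell to 96.1 and 96.6 CPM, against 214 and 207 CPM in controls, or -1.05 ± 0.07 (SE, adjusted p = 4.35e-05). The groups did not overlap for either gene.

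CG8160 was called lower for 6 TFs and higher for none. In TfAP-2 RNAi it fell to 94.3 and 96.8 CPM, against 202 and 191 CPM in controls, a log2 fold change of -1.16 ± 0.08 (SE, adjusted p = 0.00859). In Pdp1 RNAi it fell to 152 and 137 CPM, against 298 and 272 CPM in controls at 16-18 h, or -1.002 ± 0.08 (SE, adjusted p = 5.62e-05). In Pdp1 RNAi at 14-16 h it fell to 38.2 and 27.6 CPM, against 109 and 64.0 CPM in controls, or -1.37 ± 0.23 (SE, adjusted p = 0.00422). In none of these did the groups overlap. The remaining TFs were Bdp1, Camta and CG10209. Over the 42 control libraries of 16-18 h CG8160 ranged from 67.6 to 309 CPM, with a median of 190 CPM. The Pdp1 controls lay in the upper part of that range, and the highest library was among the shared controls of Camta and CG10209.

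Pdp1, a basic leucine zipper factor of muscle and fat body, had 183 and 194 CPM in Pdp1 RNAi embryos, against 229 and 229 CPM in controls at 16-18 h. There 6 members were lower and 1 higher, against 2.03% and 6.19% of all genes, and the lower calls numbered 11 without the first RNAi library and 2 in the single fit. At 14-16 h Pdp1 had 135 and 138 CPM in Pdp1 RNAi embryos, against 234 and 172 CPM in controls. At that window 14 members were lower and none higher, against 2.06% and 9.67% of all genes. The lower members at 14-16 h numbered 7 to 30 when 1 library was left out, the 7 without the first control library and the 30 without the first RNAi library, and 5 in the single fit. In all 5 members were lower at both windows, 35.7% of the first list and 83.3% of the second.

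In Bdp1 RNAi, 14 members were lower and 3 higher at 16-18 h, against 5.01% and 18.7% of all genes. Bdp1, a subunit of the RNA polymerase III factor TFIIIB, had 33.8 and 30.0 CPM in Bdp1 RNAi embryos, against 43.4 and 42.4 CPM in controls. CG15533 fell to 9.47 and 12.7 CPM in Bdp1 RNAi embryos, against 33.8 and 47.5 CPM in controls, a log2 fold change of -1.65 ± 0.17 (SE, adjusted p = 7.64e-05). CG3819 fell to 16.3 and 20.9 CPM, against 51.1 and 71.0 CPM in controls, or -1.49 ± 0.16 (SE, adjusted p = 8.24e-05). CG17145 fell to 21.9 and 23.3 CPM, against 54.0 and 52.3 CPM in controls, or -1.003 ± 0.08 (SE, adjusted p = 1.53e-05). None of these overlapped, and the single fit made 4 lower calls. The higher calls numbered 6 without the second RNAi library and 6 without the first control library. Midgut digestion markers were lower in 6 of 8 cases, with 722 and 764 CPM in Bdp1 RNAi embryos, against 1251 and 1392 CPM in controls. Egg markers were higher in 3 of 5 cases, with 237 and 234 CPM in Bdp1 RNAi embryos, against 128 and 141 CPM in controls. The part of these lists in the result was not tested.

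In trh RNAi, 5 members were lower and none higher, against 0.775% and 0.454% of all genes. The trachealess gene trh directs formation of the air tubes, and had 24.4 and 25.8 CPM in trh RNAi embryos, against 28.1 and 34.6 CPM in controls. CG11413 fell to 41.0 and 50.6 CPM in trh RNAi embryos, against 127 and 201 CPM in controls, a log2 fold change of -2.004 ± 0.26 (SE, adjusted p = 0.0782). CG13311 fell to 22.6 and 23.9 CPM, against 66.1 and 84.7 CPM in controls, or -1.86 ± 0.16 (SE, adjusted p = 0.0410). CG14566 fell to 32.5 and 37.9 CPM, against 98.1 and 123 CPM in controls, or -1.82 ± 0.17 (SE, adjusted p = 0.0460). The groups did not overlap for any of the 3. None of the 4 tracheal markers, a list that includes trh itself, was called. They summed to 379.5 and 350.1 CPM in trh RNAi embryos, against 255 and 301 CPM in controls. The lower calls numbered 13 without the first control library and 3 and 1 without the first or the second RNAi library. The higher calls numbered 3 and 9 without the first or the second control library.

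In the libraries labelled kay RNAi, 10 members were lower and 5 higher, against 4.61% and 14.3% of all genes. The kay level, that of the fly Fos protein, was 88.4 and 101 CPM in these libraries, against 110.4 and 94.3 CPM in controls, so that it overlapped. CG6763 fell to 34.4 and 33.3 CPM in the libraries labelled kay RNAi, against 101 and 92.4 CPM in controls, a log2 fold change of -1.33 ± 0.10 (SE, adjusted p = 0.00659). CG11413 rose to 277 and 278 CPM, against 156 and 113 CPM in controls, or 1.25 ± 0.15 (SE, adjusted p = 0.0224). Neither overlapped. No member was called when either RNAi library was left out, and 9 and 3 were higher without the first or the second control library. The knockdown of fd59A, with 0.702 and 1.02 CPM of fd59A in RNAi embryos, against 4.30 and 4.61 CPM in controls, gave 9 lower and 2 higher, against 1.66% and 6.07% of all genes. Its lower calls numbered 18 without the second RNAi library, 5 without the first, and 1 and 0 without the first or the second control library. Its higher calls numbered 5 without the first RNAi library.

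In TfAP-2 RNAi, 6 members were lower and 3 higher, against 4.18% and 2.17% of all genes. The higher calls numbered 1 and 6 without the first or the second control library and 5 without the first RNAi library, and the single fit made 2 lower calls and none higher. TfAP-2 itself had 6.51 and 7.34 CPM in TfAP-2 RNAi embryos, against 8.89 and 10.4 CPM in controls. CG32603 rose to 195 and 184 CPM in TfAP-2 RNAi embryos, against 75.9 and 99.0 CPM in controls, a log2 fold change of 0.99 ± 0.15 (SE, adjusted p = 0.0297). CG10910 rose to 155 and 155 CPM, against 99.5 and 92.1 CPM in controls, or 0.58 ± 0.08 (SE, adjusted p = 0.0241). Both were also higher in the libraries labelled kay RNAi. CG10910 was lower for CG10209, Bdp1 and caup, and CG32603 was lower for fd59A and CG9876.

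The libraries labelled sens-2 RNAi had members changed in both directions. For this cross the paper reports lethality in pupae. It also reports minimal change of the sens-2 transcript as a whole, but reduced expression upstream of the hairpin site. Counts used here cover the whole gene and cannot show a change in part of it. An unchanged total therefore does not show that knockdown failed in these libraries. The sens-2 level was not lower in them, with 24.7 and 26.8 CPM, against 28.0 and 25.2 CPM in controls at 14-16 h, and 22.9 and 27.6 CPM, against 21.9 and 21.5 CPM in controls at 16-18 h. At 14-16 h, 8 members were lower and 3 higher, against 0.563% and 0.407% of all 11539 genes. At 16-18 h, 5 were lower and 9 higher, against 9.25% and 3.26% of all 11459 genes. At 14-16 h the lower calls fell to 2 and 1 and the higher calls to 0 and 1 without the first or the second control library. At 16-18 h the lower calls fell to 1 without the second control library, the higher calls numbered 16 and 6 without the first or the second RNAi library, and the single fit made 1 higher call and none lower.

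Within the sens-2 comparisons the serine proteases CG17571 and CG17145 were higher at both windows. CG17571 rose to 146 and 122 CPM in the libraries labelled sens-2 RNAi, against 40.4 and 61.7 CPM in controls at 14-16 h, a log2 fold change of 1.34 ± 0.20 (SE, adjusted p = 0.0682). At 16-18 h it rose to 299.8 and 382 CPM, against 85.5 and 86.9 CPM in controls, or 1.83 ± 0.14 (SE, adjusted p = 0.00301). CG17145 rose to 35.1 and 35.5 CPM, against 12.2 and 14.9 CPM in controls at 14-16 h, or 1.33 ± 0.14 (SE, adjusted p = 0.0207). The groups were apart in each case. The midgut digestion list, which holds other proteases, had 3 of 8 markers higher at each window, with 2256 and 2739 CPM in the libraries labelled sens-2 RNAi, against 1700 and 1659 CPM in controls at 16-18 h. Its part in the result was not tested.

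CG5892 was lower at both windows in the libraries labelled sens-2 RNAi. It fell to 10.1 and 12.9 CPM in these libraries, against 58.3 and 74.6 CPM in controls at 14-16 h, a log2 fold change of -2.58 ± 0.19 (SE, adjusted p = 0.00922). At 16-18 h it fell to 47.8 and 57.7 CPM, against 68.2 and 85.2 CPM in controls, or -0.70 ± 0.15 (SE, adjusted p = 0.0398). CG14205 also fell at both windows, to 39.9 and 35.8 CPM, against 83.3 and 107 CPM in controls at 14-16 h, or -1.38 ± 0.14 (SE, adjusted p = 0.0198). CG33269 was opposite at the 2 windows, with 42.9 and 41.3 CPM in the libraries labelled sens-2 RNAi, against 63.0 and 72.9 CPM in controls at 14-16 h. At 16-18 h it had 97.8 and 107 CPM, against 66.9 and 60.5 CPM in its controls. The difference of its fold changes, -0.74 ± 0.11 at 14-16 h and 0.53 ± 0.10 at 16-18 h (SE), was 1.39 ± 0.15 (SE, adjusted p = 0.0221).

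Higher calls prevailed in zfh2 RNAi at 12-14 h, with 8 members higher and 1 lower, against 1.27% and 0.178% of all 11222 genes. The zinc finger and homeodomain factor zfh2 had 49.3 and 53.9 CPM in zfh2 RNAi embryos, against 64.6 and 75.8 CPM in controls. The 8 were CG9682, CG3819, CG42815, CG15533, CG14302, CG6403, CG17134 and CG14377, and 4 of them are among the 9 latest members. CG9682 rose to 2.71 and 7.98 CPM in zfh2 RNAi embryos, against 0.623 and 0.601 CPM in controls, a log2 fold change of 3.09 ± 0.53 (SE, adjusted p = 0.0624). CG3819 rose to 5.36 and 10.1 CPM, against 0.543 and 1.44 CPM in controls, or 2.92 ± 0.49 (SE, adjusted p = 0.0608). CG15533 rose to 5.35 and 9.93 CPM, against 1.57 and 1.50 CPM in controls, or 2.27 ± 0.32 (SE, adjusted p = 0.0368). The second RNAi library was higher than the first in all 3, and no group overlapped. For each of the 3, these controls include the lowest control library of 12-14 h. Without the library that stands apart the highest had 6.47, 8.57 and 6.35 CPM, above the first RNAi library and under the second in each case. The members' median log2 fold change was 0.65 for zfh2 and, with the same controls, 0.47 for Sox102F RNAi and 0.27 for Hr3 RNAi.

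The median log2 fold change in zfh2 RNAi at 12-14 h was 1.52 for the 9 latest members, 1.12 for the 26 between and 0.38 for the 26 earliest. Of the midgut digestion markers 6 of 8 were higher, with 176 and 344 CPM in zfh2 RNAi embryos, against 56.6 and 52.6 CPM in controls. Their part in the result was not tested. The higher calls numbered 38 without the first RNAi library, 14 without the second and 18 without the first control library, and 0 with no filter on low counts or in the single fit of all libraries. In Fer1 RNAi at 12-14 h, 6 members were higher and none lower, against 0.366% and 0.196% of all genes, with 3.90 and 4.63 CPM of Fer1 in RNAi embryos, against 10.9 and 10.7 CPM in controls. They were CG3819, CG9682, CG3348, CG10725, CG10910 and CG4563, 3 of them among the 9 latest. The count was 34 without the first control library, 2 without the second RNAi library and 0 in the single fit. Of the midgut digestion markers 2 of 8 were higher, with 148 and 149 CPM in Fer1 RNAi embryos, against 128 and 83.95 CPM in controls, and their part in the result was not tested.

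At 16-18 h the zfh2 level was not lower, with 53.4 and 41.2 CPM in the libraries labelled zfh2 RNAi, against 46.9 and 58.4 CPM in controls. The amino acid transporter CG7888 was the 1 member lower for zfh2 at both windows. It fell to 5.35 and 6.02 CPM in zfh2 RNAi embryos, against 9.75 and 9.13 CPM in controls at 12-14 h, a log2 fold change of -0.78 ± 0.15 (SE, adjusted p = 0.0826). At 16-18 h, where 0.281% of all genes were lower and 0.127% higher, it fell to 15.8 and 11.6 CPM in the libraries labelled zfh2 RNAi, against 45.9 and 54.7 CPM in controls, or -2.04 ± 0.22 (SE, adjusted p = 0.0158). Of the glia markers 2 of 4 were lower at 12-14 h, with 84.7 and 79.1 CPM in zfh2 RNAi embryos, against 99.2 and 95.1 CPM in controls. At 16-18 h none of the 4 was called, with 99.7 and 72.8 CPM in the libraries labelled zfh2 RNAi, against 103.8 and 129 CPM in controls. The paper counts CG7888 among genes expressed in longitudinal glia that were lower in this cross at 12-14 h. What part glia have in the result was not tested. CG42815 was opposite at the 2 windows. It had 3.70 and 8.04 CPM in zfh2 RNAi embryos, against 0.527 and 1.06 CPM in controls at 12-14 h, and 10.5 and 13.8 CPM in the libraries labelled zfh2 RNAi, against 25.1 and 30.3 CPM in controls at 16-18 h. The difference between its log2 fold changes, 2.84 ± 0.48 and -1.36 ± 0.19 (SE), was -4.19 ± 0.56 (SE, adjusted p = 0.0882).

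CG13560, a gene of 1 exon on arm 2R that codes 181 residues, had the largest spread between crosses. It ranged from 16.2 to 196 CPM over 38 mCherry control libraries, with a median of 89.6 CPM. In the da-Gal4 control of E5 it had 0 and 0.212 CPM, and in the MTD-Gal4 control of twi 0.706 and 0.267 CPM. In 19 of the 45 RNAi groups both libraries were under 10 CPM, in 22 both were above, and 4 groups had 1 library on each side. The 10 CPM line was chosen after the values were seen.

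**Figure D4:**
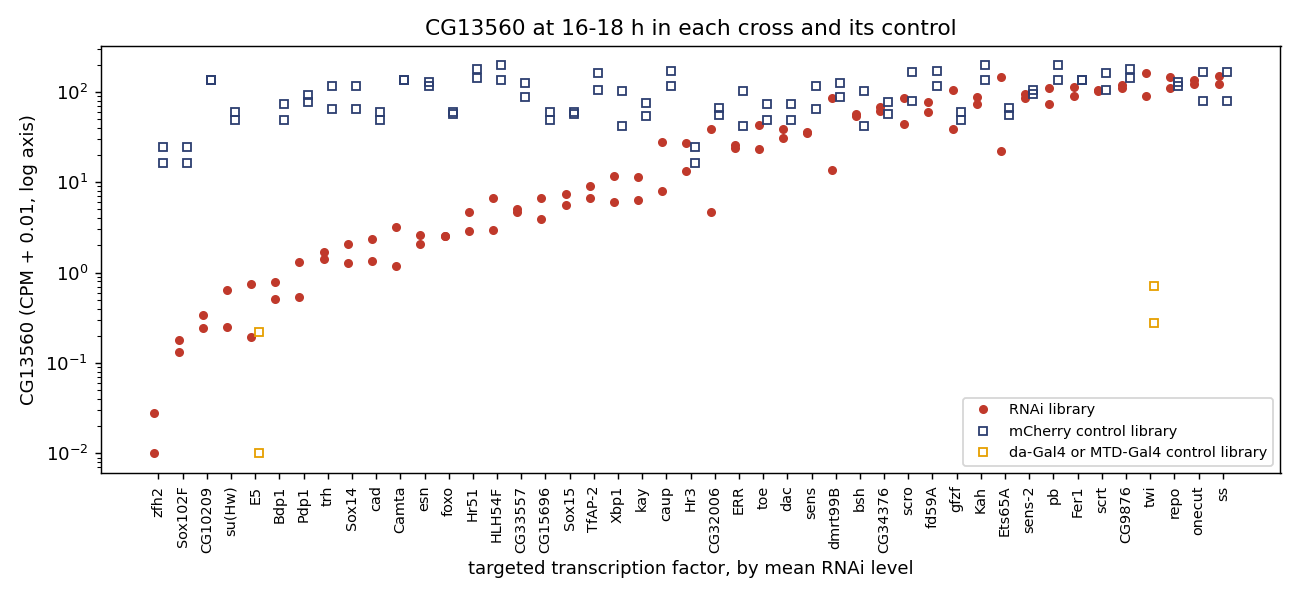
CG13560 level (CPM + 0.01, log axis) at 16-18 h in both RNAi libraries (red, left) of each of the 45 TFs and in both libraries of its control (squares, right), ordered by the mean RNAi level. RNAi values run without a clear break from 0 CPM in a library labelled zfh2 RNAi to over 100 CPM in ss, while the mCherry controls stay between 16.2 and 196 CPM.

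CG13560 was called lower for 16 TFs and higher for twi. In the libraries labelled zfh2 RNAi the counts nearly ran out, with 1 count in both together (0.0179 and 0 CPM), against 16.2 and 24.3 CPM in controls. That is a ratio of controls to RNAi of 2253, with a 95% exact interval of 404 to 89030 that covers counting error only. With the same controls, the libraries labelled Sox102F RNAi had 0.168 and 0.121 CPM of CG13560, and Hr3 RNAi had 13.2 and 26.8 CPM. Sox102F itself was not lower, with 11.5 and 9.42 CPM in the libraries labelled Sox102F RNAi, against 9.91 and 12.3 CPM in controls. CG10209 RNAi had 0.231 and 0.329 CPM, against 136 and 133 CPM in its controls, a log2 fold change of -8.79 ± 0.17 (SE, adjusted p = 4.26e-06). Camta RNAi, with the same controls, had 3.18 and 1.18 CPM, and Fer1 RNAi had 114 and 91.0 CPM. Within each of these control sets, some crosses had nearly none of this RNA and another had far more.

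For Bdp1, CG13560 fell to 0.771 and 0.507 CPM in RNAi embryos, against 72.5 and 49.2 CPM in controls, a log2 fold change of -6.27 ± 0.26 (SE, adjusted p = 2.74e-06). For Pdp1 it fell to 1.29 and 0.532 CPM, against 92.8 and 76.6 CPM in controls, or -6.55 ± 0.23 (SE, adjusted p = 7.44e-07). For foxo it fell to 2.53 and 2.54 CPM, against 59.4 and 57.1 CPM in controls, or -4.56 ± 0.09 (SE, adjusted p = 1.45e-05). It was lower for esn, Hr51, kay, Sox14, Sox15, TfAP-2, trh, caup and fd59A as well. In 6 groups with both libraries under 10 CPM it was not called. For su(Hw) it had 0.241 and 0.630 CPM in the libraries labelled su(Hw) RNAi, against 60.2 and 48.9 CPM in controls, or -7.08 ± 0.47 (SE, adjusted p = 0.258). The su(Hw) level overlapped, with 74.2 and 111.5 CPM in these libraries, against 89.6 and 310.3 CPM in controls. The other 5 were CG15696, CG33557, HLH54F and, with the target not lower either, cad and E5. The log2 fold change was -3.47 for CG15696, -4.06 for CG33557, -5.235 for HLH54F and -4.925 for cad, without overlap. No gene at all was called at 16-18 h for su(Hw), CG15696, CG33557 or cad, and for HLH54F 2 of 11491 genes were.

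In the twi comparison CG13560 was higher, and its MTD-Gal4 controls were near 0. CG13560 had 162 and 90.8 CPM in twi RNAi embryos, against 0.706 and 0.267 CPM in these controls, a log2 fold change of 8.07 ± 0.82 (SE, adjusted p = 0.00843). The controls differ from the RNAi cross in driver and hairpin, which cannot be told apart here. In the libraries labelled E5 RNAi it had 0.744 and 0.183 CPM, against 0 and 0.212 CPM in the da-Gal4 controls, with both groups near 0.

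In several of the same crosses CG13560 was also low in an earlier window. In Pdp1 RNAi at 14-16 h it had 0.248 and 0.0214 CPM, against 8.93 and 9.61 CPM in its controls, a log2 fold change of -6.07 ± 0.45 (SE, adjusted p = 2.33e-04). In CG10209 RNAi at 12-14 h it had 0.0704 and 0 CPM, against 1.60 and 0.677 CPM in its controls, or -4.38 ± 0.81 (SE, adjusted p = 0.00332). In zfh2 RNAi at 12-14 h it had 0 and 0.0302 CPM, against 0.447 and 0.237 CPM in its controls, or -4.35 ± 1.01 (SE, adjusted p = 0.150). In ERR RNAi at 10-12 h it had 0.0556 and 0.0844 CPM, against 1.76 and 1.24 CPM in its controls, or -4.39 ± 0.51 (SE, adjusted p = 0.00388), although ERR RNAi embryos of 16-18 h had 25.7 and 24.2 CPM, against 41.6 and 103 CPM in its controls. Without CG13560 the 16-18 h calls of all members numbered 144 lower and 32 higher.

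The 5 neighbouring genes of arm 3L were not called as 1 unit at 16-18 h. In caup RNAi at 10-12 h all 5 were lower, where 49.5% of all genes were. In CG10209 RNAi at 12-14 h 3 of them were lower, against 6.36% of all genes. In the libraries labelled sens-2 RNAi at 14-16 h 3 were lower, against 0.563% of all genes. At 16-18 h, CG43391 was called higher for 6 TFs and lower for none, and CG43390 higher for 4 and lower for 1, while CG33269 was called once, CG33271 once and CG33270 not at all. In CG10209 RNAi embryos CG43391 rose to 129 and 92.9 CPM, against 33.8 and 53.4 CPM in controls, a log2 fold change of 1.44 ± 0.24 (SE, adjusted p = 0.00581). CG43390 rose to 89.2 and 74.9 CPM, against 26.9 and 59.6 CPM in controls, or 1.02 ± 0.32 (SE, adjusted p = 0.0533). Their neighbour CG33270 had 294 and 296 CPM, against 292 and 276 CPM in its controls, or 0.14 ± 0.10 (SE, adjusted p = 0.314).

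**Figure D5:**
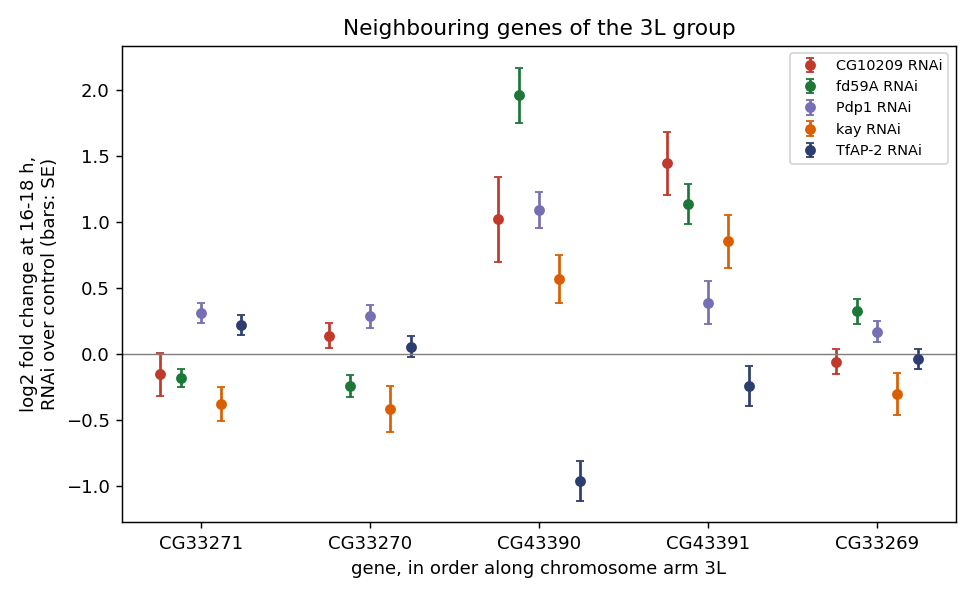
Log2 fold change at 16-18 h (RNAi over control, edgeR; bars are the SE, 2 libraries a group) of the 5 neighbouring 3L genes, in chromosome order, for 5 TFs. CG43390 and CG43391 lie above 0 for CG10209, fd59A, Pdp1 and kay, while the other 3 genes lie closer to 0 for each of these TFs.

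In fd59A RNAi embryos CG43390 rose to 41.3 and 49.1 CPM, against 10.6 and 14.96 CPM in controls, a log2 fold change of 1.96 ± 0.21 (SE, adjusted p = 0.0235). These fd59A and caup controls include the lowest CG43390 library of all 42, where the range was 10.6 to 80.2 CPM. In Pdp1 RNAi embryos CG43390 rose to 66.8 and 50.8 CPM, against 24.3 and 30.1 CPM in controls, or 1.09 ± 0.14 (SE, adjusted p = 6.14e-04). In TfAP-2 RNAi embryos it fell to 35.8 and 42.7 CPM, against 63.9 and 76.2 CPM in controls, or -0.96 ± 0.15 (SE, adjusted p = 0.0328). In the libraries labelled kay RNAi the groups of CG43390 overlapped, although it was called.

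In twi RNAi embryos, with 1.38 and 2.41 CPM of twi, against 4.07 and 4.625 CPM in controls, the members tended to be high. Their sum was 16330 and 10820 CPM, the 2 highest of all RNAi libraries, and the median log2 fold change was 0.70, against 0.07 for all genes. Only CG13560 and the epimerase CG32444 were called higher and none lower, against 0.579% and 1.40% of all genes. CG32444 rose to 148 and 108 CPM in twi RNAi embryos, against 19.98 and 18.3 CPM in the MTD-Gal4 controls, a log2 fold change of 2.82 ± 0.54 (SE, adjusted p = 0.0598). Of the midgut digestion markers 1 of 8 was higher, with 4329 and 2592 CPM in twi RNAi embryos, against 1469 and 1419 CPM in controls, and 3 of 5 egg markers were lower. What part these lists have in the result was not tested. For CG9876 and Hr51 at 12-14 h, whose shared control pair holds the library that stands apart, no member was called by edgeR, nor was any other gene. The summed level was 745 and 345 CPM in Hr51 RNAi embryos and 976 and 633 CPM in CG9876 RNAi embryos, against 3531 and 706 CPM in these controls. At an unadjusted p under 0.05 there were 12 members for Hr51 and 0 for CG9876, and DESeq2 called 6 and 0.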

How the data were processed

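The authors deposited 1 table of raw counts per library, with reads aligned by STAR 2.7.3a to the dm6 genome and assigned to gene symbols by HTSeq 0.12.4, and the submitters' processing notes also name DESeq2 1.24.0. Whether strand was used in counting is not given in the sources used here. The summary lines, 3.52% to 20.7% of reads per library, were left out, and CPM was computed from the counts on genes. The members and gene lists were chosen with earlier results of these data known. RNAi and control libraries were compared in each TF and window with edgeR 4.0.16 (quasi-likelihood test, TMM scaling, filterByExpr with a minimum count of 10) in R 4.3.3, with Benjamini-Hochberg adjustment over all genes left, and a call needs an adjusted p of at most 0.1 and a log2 fold change of at least 0.5 in size. Control sets of 14-16 h were compared with those of 12-14 h on summed counts, and the change of a TF's effect between windows was tested as an interaction in a fit of both windows. All 61 members passed the filter except in 3 of 732 pairs at 10-12 h. The labels call the libraries of a group biological replicates, and with 2 a group the p-values measure the spread between those libraries. Alternatives were DESeq2 1.42.0, RLE scaling, no filter, stricter thresholds, a replicate block, 1 fit of all libraries of a window and leaving out each library. The code was tested on simulated data.

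Genes were named by a rule: the 6 most abundant members, those at the edges of each threshold, those called for most TFs in each direction, up to 4 called members with the largest changes in the 8 comparisons with most calls, neighbours within 20 kb, and the extremes in onset and in spread. Examples from other comparisons, the 10 CPM line for CG13560 and the removal of the library that stands apart were chosen after the values were seen. Marker lists are those of 10 tissues, and the fat body list was too short to read, with 2 genes in the files. Libraries held 13.2 to 167 M gene counts, and the interval of a ratio of counts covers counting error only.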

Additional observations from a re-analysis of the deposited data

Results flagged for a closer look

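The first mCherry control library for CG9876 and Hr51 at 12-14 h had a summed member level of 3531 CPM, far from the other 9 control libraries of the window. Its gap was 0.846 of the whole range, above the critical 0.466 for 10 libraries, a test that flags about 1 in 20 groups by chance.

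For 3 members the calls at the 2 windows of a knockdown were opposite, and they were taken up for that reason. In a test of the difference itself the effects of the windows differed for each. The log2 effect at 16-18 h minus that of the earlier window was 1.73 for CG33272 in CG10209 RNAi (12-14 h). It was 1.39 for CG33269 in the libraries labelled sens-2 RNAi (14-16 h) and -4.19 for CG42815 in zfh2 RNAi (12-14 h). The zfh2 level itself was not lower in the libraries labelled zfh2 RNAi at 16-18 h. Members without opposite calls also differed in this test. Examples were CG3348 in CG10209 RNAi (-1.77, adjusted p = 0.00194) and CG5892 in the libraries labelled sens-2 RNAi (2.00, adjusted p = 0.0287).

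Some RNAi libraries of early windows, which enter no comparison above, had a summed member level above every control library of the window. At 0-1.5 h these were the second Kah library with 648 CPM and the second CG9876 library with 232 CPM, against at most 195 CPM in controls. At 2-4 h, CG15696 had 82.9 CPM, gfzf 37.9 CPM, su(Hw) 32.2 CPM, cad 29.9 CPM and twi 26.9 CPM in 1 library each, against at most 17.4 CPM in controls. At 6-8 h, dmrt99B had 213.5 CPM and toe 166.0 CPM in 1 library each, against at most 163 CPM in controls. At 8-10 h, both HLH54F libraries were above, with 251 and 244 CPM, as was 1 library of pb with 231 CPM and 1 of Kah with 176 CPM, against at most 171 CPM in controls. Only HLH54F had both libraries above.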

How the results depend on the processing

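The 16-18 h calls numbered 193 and became 297 with DESeq2, 94 with a log2 fold change of at least 1 and 113 without caup and CG10209, which was chosen after seeing the data. Leaving out 1 library of each group gave 237 to 320. At 12-14 h and 14-16 h the 115 calls became 36 in 1 fit of all libraries of a window, 71 with an adjusted p of at most 0.05, 59 with a log2 fold change of at least 1, and 117 to 268 with 1 library left out. At 10-12 h the 90 calls became 150 with no filter, 29 without caup (chosen after seeing the data), and 104 to 159 with 1 library left out. The 30 members higher at 14-16 h became 52 with single libraries, 59 without the library that stands apart (chosen after seeing the data), 12 with an adjusted p of at most 0.05, and 1 to 61 with 1 set left out. The cause of these shifts was not tested. With 1 library left out, the lone sample is assumed to vary like the other group, and Camta at 12-14 h, with 1 RNAi library, could not be fitted so.

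Same-numbered libraries did not deviate together in general, with a median correlation of 0.05 over 73 comparisons, so the numbers were read as names. Single comparisons ran from -0.777 to 0.812, with 27 over 0.1 and 17 under -0.1, so a median near 0 does not exclude pairing in some. At 16-18 h the correlation was 0.812 for fd59A and 0.63 for trh. With a replicate block fd59A had 13 lower and 2 higher member calls, and trh 7 lower and 2 higher. With a replicate block the calls were 286 at 16-18 h (198 lower, 88 higher), 165 at 12-14 h and 14-16 h, 150 at 10-12 h (102 lower, 48 higher) and 54 between the control sets. Pairing the numbers crosswise gave 268, 166 and 114.

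For 103 named pairs of member and comparison, 824 values under alternatives kept their direction, and 653 stayed past the thresholds while 171 did not. Of the 171, 58 came from the 1 fit of all libraries and 4 from DESeq2. Members at 10-12 h had few reads, which limits their precision.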
